A study of Mus musculus with 12 samples.

Results

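Basement membranes are the thin sheets of extracellular matrix on which epithelia sit, and 9 genes for their laminin, collagen IV and linker proteins were followed in mouse embryonic stem cells after knockdown of Krr1, a gene needed to assemble the small subunit of the ribosome. The 9 genes, Lama1, Lama5, Lamb1, Lamc1, Col4a1, Col4a2, Sparc, Nid1 and Hspg2, were chosen by symbol, and each has 1 row among the 23420 gene rows of both count tables. The choice was made with earlier results of these data known. All 9 had enough reads to be tested in every comparison.

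R1 cells, an established line of mouse embryonic stem cells, were kept on gelatin in medium with the cytokine LIF and were lysed 48 h after transfection. The tested cells received siRNAs against Krr1, and their libraries are called siKrr1 A, siKrr1 C and siKrr1 D. The control cells were likewise transfected for 48 h, and their libraries are named siGFP, siNC and Lipo. The labels describe a different siRNA for each library of a group, although the name Lipo does not state one. Part of each lysate was used for RNA-seq of rRNA-depleted fragments and part for ribosome profiling, which sequences the stretches of mRNA that ribosomes cover (footprints, or RPF for short in the plots). Each assay therefore has 3 siKrr1 and 3 control libraries, 12 in all. The labels do not say that the libraries of a group came from separate cultures, so the p-values measure only the spread between these libraries.

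Laminins are trimers of an α, a β and a γ chain that polymerise at the cell surface, and the chains encoded by Lama1, Lamb1 and Lamc1 form laminin-111, the laminin of the earliest embryonic basement membranes. Lama5 encodes the α chain of laminin-511, which pairs with the same β1 and γ1 chains and is an adhesive substrate for pluripotent stem cells. Collagen IV is a network of triple helices, each of α1 chains (Col4a1) and α2 chains (Col4a2), and its export depends on prolyl and lysyl hydroxylases and on chaperones of the endoplasmic reticulum. Nidogen-1 (Nid1) and the heparan sulfate proteoglycan perlecan (Hspg2) link the laminin and collagen sheets, and Sparc binds collagen in the extracellular space.

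Col4a1 and Col4a2 lie head to head on chromosome 8 and share a promoter region, so their starts are shown together, with those of Lamb1 and Sparc, the members whose calls were shared by both assays. RefSeq on GRCm38.p6 (the build also named mm10) places Col4a1 at chr8:11198423-11312889 and Col4a2 at chr8:11312805-11449287, which overlap by 85 bases at their starts. Each window runs from 250 bases before to 50 bases after the start that the RefSeq window table uses, 5′ to 3′ on the strand of its gene. That start is the end of the gene extent for Col4a2 and Sparc and lies inside the extent for Col4a1 and Lamb1, and the 2 collagen windows share 78 bases. Capitals mark matches to CCAAT (the CCAAT box) and GGGCGG (the GC box) on either strand, so a reverse match reads ATTGG or CCGCCC.
Col4a1, chr8:11312777-11313076, minus strand: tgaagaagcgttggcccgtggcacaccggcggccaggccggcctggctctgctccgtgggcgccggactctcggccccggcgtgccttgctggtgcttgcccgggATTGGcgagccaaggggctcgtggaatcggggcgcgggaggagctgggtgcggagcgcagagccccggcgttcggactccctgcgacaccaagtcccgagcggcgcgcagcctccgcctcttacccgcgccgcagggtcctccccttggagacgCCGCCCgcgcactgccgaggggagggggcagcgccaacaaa
Col4a2, chr8:11312555-11312854, plus strand: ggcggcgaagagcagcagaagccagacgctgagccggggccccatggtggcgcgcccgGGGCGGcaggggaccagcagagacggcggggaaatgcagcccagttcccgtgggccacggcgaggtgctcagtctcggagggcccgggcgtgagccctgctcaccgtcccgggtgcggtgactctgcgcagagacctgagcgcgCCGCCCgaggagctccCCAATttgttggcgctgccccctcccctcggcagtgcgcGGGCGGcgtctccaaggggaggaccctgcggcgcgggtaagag
Lamb1, chr12:31265043-31265342, plus strand: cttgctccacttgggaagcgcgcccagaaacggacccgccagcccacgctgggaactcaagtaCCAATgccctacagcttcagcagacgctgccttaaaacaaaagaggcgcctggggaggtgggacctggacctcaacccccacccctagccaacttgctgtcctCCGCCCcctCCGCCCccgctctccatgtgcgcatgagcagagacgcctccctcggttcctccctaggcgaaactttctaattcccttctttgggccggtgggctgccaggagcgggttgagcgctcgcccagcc
Sparc, chr11:55420031-55420330, minus strand: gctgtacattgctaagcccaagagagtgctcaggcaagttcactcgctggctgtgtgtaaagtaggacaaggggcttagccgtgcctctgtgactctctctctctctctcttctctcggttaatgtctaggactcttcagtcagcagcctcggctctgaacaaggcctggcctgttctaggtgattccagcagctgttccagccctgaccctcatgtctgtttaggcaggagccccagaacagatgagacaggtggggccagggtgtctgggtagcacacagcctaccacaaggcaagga

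The RefSeq table held a window for 7 of the 9 genes. GGGCGG was found in 6 of these 7, against 35.7% of all 32851 windows, and CCAAT in 4 of 7, against 37.4%. The only GGGCGG match of the Col4a1 window lies in the bases shared with the Col4a2 window, so the same site is counted for both genes. GGAGG was found in 6 of 7 windows, against 72.9% of all windows. The Sparc window held none of the motifs searched. TATAAA, the TATA box, was found in 0 of the 7 windows and in 13.6% of all, and TGANTCA, the AP-1 motif (N is any base), in 0 of 7 and in 7.81% of all. All were searched on both strands, and matches to GGAGG and GGGCGG can share end bases, as they do in the Lamb1 window. The Col4a1 and Col4a2 windows held 74% and 73.7% G and C, the Lamb1 window 63.7% and the Sparc window 55.3%, with a median over all windows of 52.7%. A match describes letters in the window only.

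Reads counted on genes ranged from 31318772 to 37673764 in the siKrr1 RNA libraries and from 35795829 to 39670139 in the control RNA libraries. In the footprint libraries they ranged from 21615934 to 28911254 for siKrr1 and from 22317119 to 28026444 for control. Levels are given as CPM, the count scaled to library size by the TMM method and expressed per 1000000 reads, and a gene was called where its adjusted p in the edgeR quasi-likelihood test was under 0.05. Krr1 itself had 33.7, 58.0 and 64.6 CPM in RNA of siKrr1 A, C and D, against 155, 151 and 160 CPM in siGFP, siNC and Lipo. On the log2 scale the difference was -1.58 ± 0.18 (SE) for RNA (edgeR adjusted p = 0.00228) and -1.77 ± 0.18 in footprints (edgeR adjusted p = 0.000819), and siKrr1 A had the least Krr1 in both assays.

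The stem cell label was checked against marker genes. Pou5f1, the core pluripotency factor, averaged 2669 CPM in siKrr1 RNA and 2927 CPM in control RNA. Of 10 stem cell markers, 3 were called lower in RNA and none higher, where 2.11% of all genes tested were called lower. The 3 were Nanog, with a log2 fold change of -0.58 ± 0.09 (edgeR adjusted p = 0.00758), Esrrb and Zfp42, all factors or markers of the naive state. The 10 markers summed to 7263 to 8537 CPM in siKrr1 RNA and 8804 to 8943 CPM in control RNA. In footprints 2 were called lower and 0 higher, and 6 were lower at an unadjusted p under 0.05. Over all genes, 2.68% were called lower in footprints, and 22.5% had an unadjusted p under 0.05 in either direction. Without Nanog, Esrrb and Zfp42, the other 7 summed to 3703 to 4029 CPM in siKrr1 footprints and 4192 to 4289 CPM in control footprints. In RNA these 7 overlapped, with 5548 to 6446 CPM in siKrr1 and 6254 to 6407 CPM in control. Parietal and visceral endoderm make much basement membrane, and their markers were at low levels: the endoderm factors Gata4, Gata6 and Sox17 had 3 to 23 reads in any siKrr1 RNA library and 9 to 35 reads in any control RNA library. The 16 markers of this lineage summed to 59.5 to 64.6 CPM in siKrr1 RNA and 37.2 to 44.5 CPM in control RNA, and without Lrp2, an endocytic receptor that was the only one called, to 9.93 to 10.3 CPM in siKrr1 and 9.79 to 11.9 CPM in control. The 14 fibroblast markers summed to 32.4 to 39.2 CPM in siKrr1 RNA and 31.8 to 39.3 CPM in control RNA, with Col3a1, Lum and Postn at 0 in all RNA libraries. Of the 8 tested, Col5a2, a chain of collagen V, was called, with a log2 fold change of 1.36 ± 0.31 in RNA (edgeR adjusted p = 0.0329). Thus 1 of these 8 and 1 of the 10 endoderm markers tested were called higher in RNA, beside 2.69% of all genes. The 8 endothelial markers summed to 147 to 153 CPM in siKrr1 RNA and 130.0 to 140 CPM in control RNA, and 0 of the 6 tested were called by edgeR (1 at an unadjusted p under 0.05). Ttr and Emcn, further endoderm and endothelial markers, were also at 0 in all RNA libraries. The part of any other cell type in the results was not tested further, and in such bulk libraries a change in the number of cells of a type and a change in RNA per cell cannot be told apart.

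After Krr1 knockdown, RNA of the laminin β1 chain, the collagen IV α1 chain and Sparc was higher, and footprints of the laminin α5 and β1 chains and Sparc were higher, each by 1.31 to 1.39 fold. These were 3 of the 9 genes in each assay, where 2.69% of all 14038 genes tested were called higher in RNA and 3.39% of 13287 in footprints. The 9 were chosen with earlier results of these data known, so the shares over all genes stand beside them as a description. None of the 9 was called lower, where 2.11% of all genes were in RNA and 2.68% in footprints. The median log2 fold change of the 9 was 0.30 in both assays, beside -0.0012 in RNA and 0.0067 in footprints over all genes tested. The fold change was above 0 for 8 of the 9 in each assay, the exception being Nid1, where the share of all genes above 0 was 49.8% in RNA and 51.5% in footprints. Before adjustment, 5 of the 9 had a p under 0.05 in RNA and 8 in footprints, Nid1 among the 8 and below 0, where 20.9% of all genes had one in RNA and 22.5% in footprints. DESeq2 also called none of the 9 lower in either assay.

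**Figure D1:**
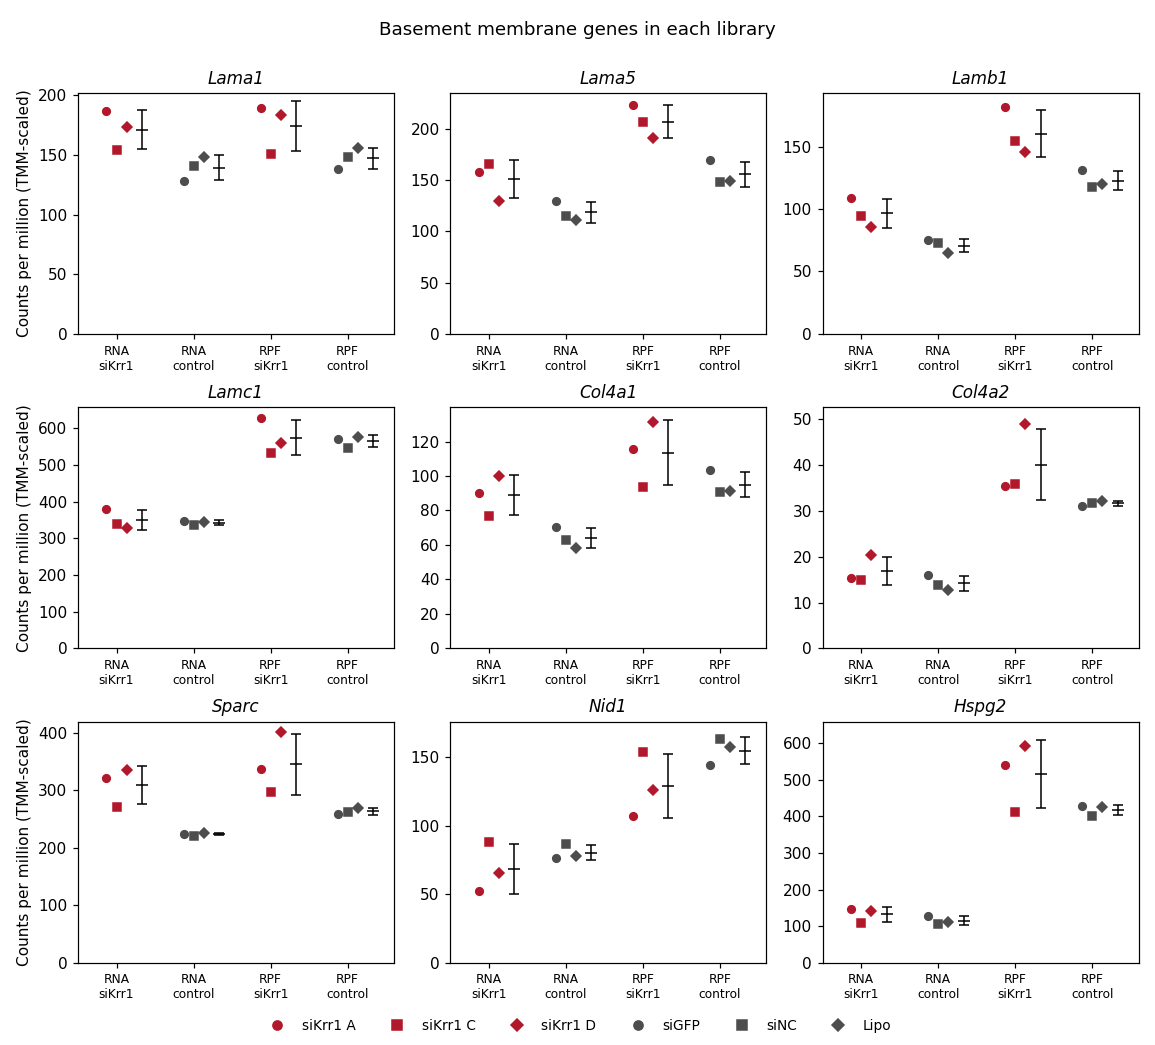
Scaled counts (CPM) of each of the 9 genes in every library, with siKrr1 libraries (red) left of controls (grey) in RNA and then in footprints; bars give the mean and SD of 3 libraries. Lamb1 and Sparc stood apart between the groups in both assays, Lamc1 overlapped in both, and Nid1 was lowest in siKrr1 A.

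Among the laminin chains, β1 was called higher in both assays, α5 in footprints, and α1 and γ1 in neither. Lamb1 (chr12:31265146-31329644) encodes the β1 chain shared by laminin-111 and laminin-511, and its RNA had 109, 94.8 and 85.6 CPM in siKrr1 A, C and D, against 75.0, 72.8 and 64.5 CPM in siGFP, siNC and Lipo. All siKrr1 libraries were above all controls, and the log2 fold change was 0.45 ± 0.10 (SE; edgeR adjusted p = 0.0289). Lamb1 footprints had 181.5, 154 and 146 CPM in siKrr1 A, C and D, against 131, 118 and 120 CPM in siGFP, siNC and Lipo. The groups were again apart, with siKrr1 A highest, and the log2 fold change was 0.38 ± 0.08 (edgeR adjusted p = 0.0226).

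Lama5 (chr2:180176373-180225904), the α chain of laminin-511, had 224, 207 and 191 footprint CPM in siKrr1 A, C and D, against 170, 148 and 149 CPM in siGFP, siNC and Lipo. The groups did not overlap, and the log2 fold change was 0.41 ± 0.07 (edgeR adjusted p = 0.0107). Lama5 RNA had 158, 166 and 130.038 CPM in siKrr1 A, C and D, against 130.029, 115 and 111 CPM in siGFP, siNC and Lipo. Here siKrr1 D and siGFP lay at practically the same level, and the log2 fold change of 0.35 ± 0.10 was not called (edgeR adjusted p = 0.0675).

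Lama1 (chr17:67697127-67822645), the α chain of laminin-111, was called in neither assay. Its RNA had 187, 154 and 174 CPM in siKrr1 A, C and D, against 128, 141 and 149 CPM in siGFP, siNC and Lipo, without overlap and with a log2 fold change of 0.30 ± 0.09 (edgeR adjusted p = 0.0756). Its footprints had 190, 151 and 184 CPM in siKrr1 A, C and D, against 138, 148 and 156 CPM in siGFP, siNC and Lipo. There siKrr1 C lay below the Lipo control, and the log2 fold change was 0.24 ± 0.09 (edgeR adjusted p = 0.115).

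Lamc1 (chr1:153218922-153332786) encodes the γ1 chain common to both trimers and had the value nearest to 0 in both assays. Its RNA had 379, 340 and 329 CPM in siKrr1 A, C and D, against 348, 337 and 344 CPM in siGFP, siNC and Lipo, and its footprints had 627, 534 and 561 CPM in siKrr1 A, C and D, against 572, 547 and 576 CPM in siGFP, siNC and Lipo. In both assays siKrr1 A was above all controls and siKrr1 C and D lay among or below them. The log2 fold changes were 0.03 ± 0.07 in RNA (edgeR adjusted p = 0.874) and 0.02 ± 0.06 in footprints (edgeR adjusted p = 0.873).

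Of the collagen IV chains, α1 was called in RNA only, and α2 in neither assay. Col4a1 RNA had 90.2, 76.9 and 100.1 CPM in siKrr1 A, C and D, against 70.4, 63.1 and 58.5 CPM in siGFP, siNC and Lipo. All siKrr1 libraries were above all controls, with siKrr1 D highest, and the log2 fold change was 0.48 ± 0.10 (edgeR adjusted p = 0.029). Col4a1 footprints had 116, 93.7 and 131 CPM in siKrr1 A, C and D, against 103, 90.6 and 91.2 CPM in siGFP, siNC and Lipo. The siKrr1 C library lay below siGFP, and the log2 fold change was 0.26 ± 0.11 (edgeR adjusted p = 0.181).

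Col4a2 RNA had 15.3, 15.0 and 20.4 CPM in siKrr1 A, C and D, against 16.0, 13.7 and 12.8 CPM in siGFP, siNC and Lipo, on 453 to 774 reads per library. Only siKrr1 D was above every control, and the log2 fold change was 0.26 ± 0.14 (edgeR adjusted p = 0.341). Col4a2 footprints had 35.4, 35.8 and 49.0 CPM in siKrr1 A, C and D, against 31.2, 31.8 and 32.3 CPM in siGFP, siNC and Lipo. The groups did not overlap, siKrr1 D again stood highest, and the log2 fold change was 0.34 ± 0.12 (edgeR adjusted p = 0.113). Reads on the 85 bases that the gene extents share could be counted for neither gene or for the wrong one, and whether strand was used in counting is not given in the sources used here.

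Sparc (chr11:55394159-55420080), a secreted calcium- and collagen-binding glycoprotein, had the smallest adjusted p of the 9 in RNA. Its RNA had 321, 271 and 334 CPM in siKrr1 A, C and D, against 224, 221 and 225 CPM in siGFP, siNC and Lipo. The controls were close together and every siKrr1 library was above them, with a log2 fold change of 0.47 ± 0.08 (edgeR adjusted p = 0.0132). Its footprints had 337, 296 and 401 CPM in siKrr1 A, C and D, against 258, 261 and 269 CPM in siGFP, siNC and Lipo. These too did not overlap, and the log2 fold change was 0.39 ± 0.09 (edgeR adjusted p = 0.0304).

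The linker genes were not called in either assay, and their fold changes had opposite signs. Nid1 (chr13:13437602-13512275) RNA had 52.1, 88.4 and 65.3 CPM in siKrr1 A, C and D, against 76.1, 86.4 and 78.1 CPM in siGFP, siNC and Lipo, and its log2 fold change was -0.22 ± 0.15 (edgeR adjusted p = 0.445). Its footprints had 107, 154 and 126 CPM in siKrr1 A, C and D, against 144, 163 and 157 CPM in siGFP, siNC and Lipo, with a log2 fold change of -0.26 ± 0.11 (edgeR adjusted p = 0.179). In both assays siKrr1 A and D lay below all controls, whereas siKrr1 C lay at the top of the RNA range and among the control footprints.

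Hspg2 (chr4:137468751-137570630), which encodes the perlecan core protein, had 541, 412 and 593 footprint CPM in siKrr1 A, C and D, against 427, 401 and 425 CPM in siGFP, siNC and Lipo. The siKrr1 A and D libraries were above all controls and siKrr1 C lay among them, with a log2 fold change of 0.30 ± 0.11 (edgeR adjusted p = 0.118). Its RNA had 147, 110 and 140 CPM in siKrr1 A, C and D, against 128, 105 and 112 CPM in siGFP, siNC and Lipo. The RNA groups overlapped in the same way, and the log2 fold change was 0.20 ± 0.11 (edgeR adjusted p = 0.337).

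**Figure D2:**
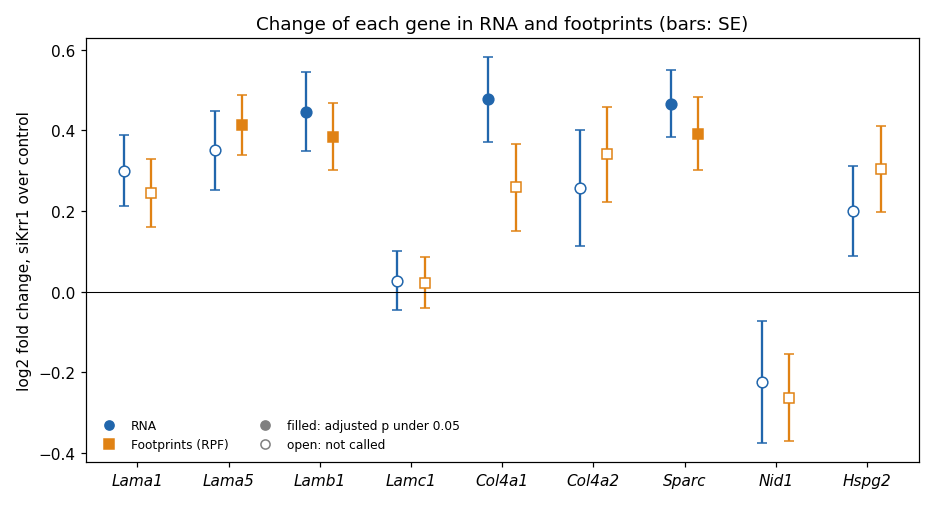
Log2 fold change of siKrr1 over control for each gene in RNA (blue circles) and in footprints (orange squares), with bars of 1 SE; filled symbols were called at an adjusted p under 0.05. Lamb1 and Sparc were called in both assays, Col4a1 in RNA, Lama5 in footprints, and Nid1 alone lay below 0.

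Groups that did not overlap, with every siKrr1 library above every control, were found for 5 of the 9 genes in RNA, beside 13.6% of all genes, and for 4 of 9 in footprints, beside 14.3%. No member had every siKrr1 library below every control, as 13.4% of all genes did in RNA and 13.6% in footprints. These shares too stand beside a set chosen with earlier results known. The RNA genes were Lama1, Lama5, Lamb1, Col4a1 and Sparc, and the footprint genes were Lama5, Lamb1, Col4a2 and Sparc. Lama5 counts in RNA only by a near tie, with 130.038 CPM in siKrr1 D and 130.029 CPM in siGFP. The 3 siKrr1 lysates differed: the median log2 difference of the 9 genes from the control mean in RNA was 0.41 for lysate A, 0.14 for lysate C and 0.28 for lysate D. In footprints it was 0.36 for lysate A, 0.03 for lysate C and 0.32 for lysate D. Lamb1 was the member farthest above the control mean in siKrr1 A, by 0.62 in RNA and 0.56 in footprints, and Lama5 in siKrr1 C, by 0.49 and 0.41. In siKrr1 D it was Col4a1 in RNA, by 0.65, and Col4a2 in footprints, by 0.63. Nid1 was farthest below in siKrr1 A and D in both assays.

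Across the 12 libraries, which come from 6 lysates, deviations of log2 CPM from the mean of each assay were compared between members as a description. The nearest pairs were Lama5 and Lamb1 (Pearson r = 0.94) and Col4a1 and Sparc (r = 0.92), and Col4a1 and Col4a2 had r = 0.83. Nid1 ran opposite to every other member, with r between -0.88, with Hspg2, and -0.43, with Col4a2. These points include the difference between the groups.

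The calls depended on single libraries, and so did those over all genes. In RNA fits without 1 library, 63 to 759 of all genes were called higher and 51 to 539 lower. With all libraries these were 378 higher and 296 lower. Without siGFP, siNC or Lipo, 0 of the 9 genes were called in RNA, with edgeR adjusted p from 0.0593 to 0.134 for Lamb1, Col4a1 and Sparc. Without siKrr1 A only Sparc was called in RNA (edgeR adjusted p = 0.0427). Without siKrr1 D the RNA calls were Lama5, Lamb1 and Sparc, since Col4a1 fell out at a log2 fold change of 0.39 (edgeR adjusted p = 0.0729). Without siKrr1 C there were 4 RNA calls higher, Lama1, Lamb1, Col4a1 and Sparc, and Nid1 was called lower at -0.44 (edgeR adjusted p = 0.0326).

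In footprints, 0 of the 9 genes were called without siNC or without Lipo, and only Lama5 without siGFP. Over all genes, footprint fits without 1 library called 67 to 791 higher and 64 to 546 lower. With all libraries these were 450 higher and 356 lower. The edgeR adjusted p of Lama5 was 0.0682 without siNC and 0.0769 without Lipo, and the highest values were 0.12 for Lamb1, without Lipo, and 0.123 for Sparc, without siGFP. Without siKrr1 D, Sparc had a log2 fold change of 0.27 (edgeR adjusted p = 0.0504). Without siKrr1 C there were 6 calls higher and Nid1 was called lower at -0.41 (edgeR adjusted p = 0.0143). The log2 fold changes of Lama5, Lamb1, Col4a1 and Sparc stayed above 0 in every such fit in both assays.

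Translational efficiency asks whether footprints changed by more or less than the RNA of the same gene. None of the 9 genes was called for it: the interaction of assay and condition over the 12 libraries called 0 of 14236 genes in edgeR (0% in either direction), with 337 genes at an unadjusted p under 0.05 and none of the 9 among them. With DESeq2, 2 genes were called higher and 0 lower, and with the lysate as a replicate block in edgeR 5 were called higher and 1 lower, none of them a member. The log2 changes of the members in translational efficiency ran from -0.22 ± 0.16 (SE) for Col4a1 to 0.10 ± 0.17 for Hspg2.

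Col4a1 was the member whose footprint-to-RNA ratio was apart between the groups. The ratio of footprint CPM to RNA CPM was 1.28, 1.22 and 1.31 in siKrr1 A, C and D, against 1.47, 1.44 and 1.56 in siGFP, siNC and Lipo. All siKrr1 lysates were below all controls, as for 5.37% of genes (6.82% were above, none of the 9 among them), and the test did not call it (edgeR adjusted p = 0.9999, and 0.491 with the replicate block). Col4a2 had a ratio of 2.31, 2.39 and 2.40 in siKrr1 A, C and D, against 1.95, 2.31 and 2.53 in siGFP, siNC and Lipo, so the groups overlapped. Hspg2 averaged 3.89 ± 0.299 in siKrr1 and 3.64 ± 0.262 in control (SD, n = 3 each). These ratios follow coding and transcript length and depth, so they were compared between groups and not between genes.

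**Figure D3:**
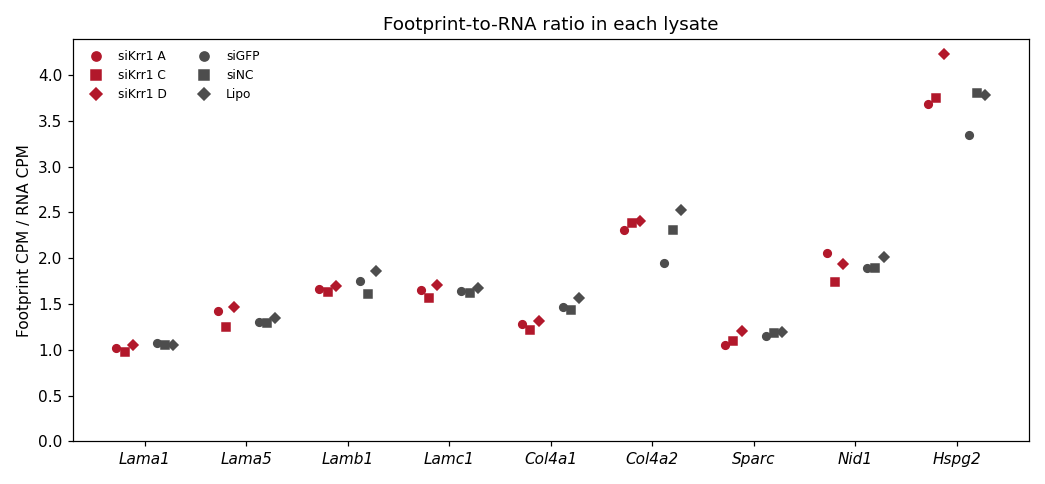
Ratio of footprint CPM to RNA CPM in each lysate for the 9 genes, with siKrr1 lysates (red) left of controls (grey). Only for Col4a1 do the 3 siKrr1 points (1.22 to 1.31) lie apart from the 3 control points (1.44 to 1.56).

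A trimer holds its chains in a fixed proportion, and the counts of chain genes were also compared within each library, where library scaling has no part. The ratio of Lamb1 to Lamc1 footprints was 0.289, 0.289 and 0.259 in siKrr1 A, C and D, against 0.229, 0.215 and 0.208 in siGFP, siNC and Lipo. It was higher in 3 of 3 siKrr1 libraries than in any control, with a log2 difference of 0.36 and an exact two-sided permutation p of 0.1, the smallest that 3 against 3 allow (0.16 adjusted over the 8 ratios computed). The ratio of Lama1 to Lamc1 footprints was 0.302, 0.282 and 0.327 in siKrr1 A, C and D, against 0.241, 0.272 and 0.270 in siGFP, siNC and Lipo. It too was apart, with a log2 difference of 0.22 and the same exact permutation p. In RNA the Lamb1 to Lamc1 ratio averaged 0.275 ± 0.0139 in siKrr1 and 0.206 ± 0.0163 in control, and the Lama1 to Lamc1 ratio 0.491 ± 0.0375 in siKrr1 and 0.406 ± 0.0346 in control (SD, n = 3 each), both without overlap. The exact permutation test on 3 against 3 libraries cannot reach a p under 0.05.

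The proportion of the α chains overlapped between groups. Footprints of Lama5 over Lama1 had a ratio of 1.18, 1.38 and 1.04 in siKrr1 A, C and D, against 1.23, 0.998 and 0.959 in siGFP, siNC and Lipo (exact permutation p = 0.3, adjusted 0.4). For collagen IV, footprints of Col4a1 over Col4a2 had a ratio of 3.26, 2.62 and 2.68 in siKrr1 A, C and D, against 3.31, 2.85 and 2.83 in siGFP, siNC and Lipo. These overlapped, with a log2 difference of -0.07 (exact permutation p = 0.5, adjusted 0.571). In RNA the Col4a1 to Col4a2 ratio averaged 5.30 ± 0.514 in siKrr1 and 4.52 ± 0.106 in control (SD, n = 3 each), and all siKrr1 libraries were above all controls (exact permutation p = 0.1, adjusted 0.16).

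**Figure D4:**
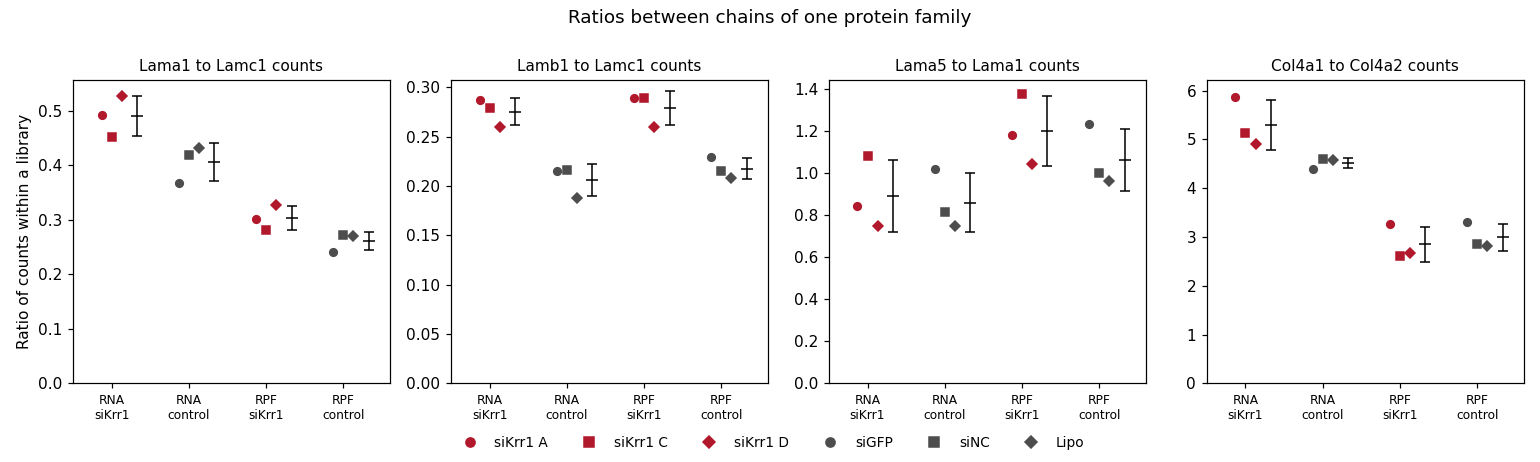
Ratios of counts between chain genes within each library, siKrr1 (red) left of control (grey), in RNA and in footprints; bars give the mean and SD of 3 libraries. The Lama1 to Lamc1 and Lamb1 to Lamc1 ratios were apart in both assays, and the Col4a1 to Col4a2 ratio in RNA.

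Among 26 further basement membrane genes, 2 were called higher and none lower in each assay, of 20 tested in RNA and 18 in footprints. Over all genes, 2.69% were called higher and 2.11% lower in RNA, and 3.39% higher and 2.68% lower in footprints. Before adjustment, 7 of the list were higher and 0 lower in RNA, and 5 higher and 1 lower in footprints, at a p under 0.05. Of all genes, 20.9% had such a p in RNA and 22.5% in footprints, in either direction. Their median log2 fold change was 0.28 in RNA and 0.20 in footprints. Tinagl1, a matricellular protein that binds laminin, averaged 9.99 ± 3.17 CPM in siKrr1 RNA and 3.92 ± 0.283 CPM in control RNA (SD, n = 3 each; log2 fold change 1.35 ± 0.21, edgeR adjusted p = 0.00912), and was not called in RNA without siGFP (edgeR adjusted p = 0.0632).

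Of 16 receptors for basement membranes, 5 were called higher in RNA of 15 tested and 6 in footprints of 14. None was called lower, with 1 in each assay below 0 at an unadjusted p under 0.05. Over all genes, 2.69% were called higher and 2.11% lower in RNA, and 3.39% higher and 2.68% lower in footprints. The median log2 fold change of the receptors was 0.14 in RNA and 0.26 in footprints. Bcam, a receptor for laminin α5, averaged 522 ± 51.6 CPM in siKrr1 RNA and 373 ± 12.1 CPM in control RNA (SD, n = 3 each), a log2 fold change of 0.49 ± 0.08 (edgeR adjusted p = 0.0108). Itgb1, the integrin β1 chain of most laminin and collagen receptors, had a log2 fold change of 0.39 ± 0.09 in RNA (edgeR adjusted p = 0.0329) and 0.35 ± 0.07 in footprints (edgeR adjusted p = 0.0145). Sdc4, a cell-surface heparan sulfate proteoglycan, had 361, 182 and 189 CPM in RNA of siKrr1 A, C and D, against 117, 129 and 120.5 CPM in siGFP, siNC and Lipo, so siKrr1 A stood far above the others. Its log2 fold change was 1.00 ± 0.21 in RNA (edgeR adjusted p = 0.0243) and 0.61 without siKrr1 A. Itgav, an integrin chain that pairs with several β chains, and the collagen receptor Ddr1 were called higher in both assays. The collagen-binding integrin Itga1 was called higher in footprints, with a log2 fold change of 1.12 ± 0.35 in RNA (edgeR adjusted p = 0.0962). The number of receptors called ranged from 0, without siNC or without Lipo, to 7, without siKrr1 C, in RNA, and from 1, without any of the 3 controls, to 7 in footprints.

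Collagens are folded and hydroxylated in the endoplasmic reticulum before export. Of 25 genes for these steps, 3 of the 23 tested were called higher in each assay, and 1 lower in footprints. Over all genes, 2.69% were called higher in RNA, and 3.39% higher and 2.68% lower in footprints. Before adjustment, 5 of the list were higher and 0 lower in RNA, and 4 higher and 2 lower in footprints, at a p under 0.05. Of all genes, 20.9% had such a p in RNA and 22.5% in footprints, in either direction. Serpinh1, the collagen chaperone HSP47, averaged 67.8 ± 8.33 CPM in siKrr1 RNA and 40.6 ± 1.5 CPM in control RNA (SD, n = 3 each), a log2 fold change of 0.74 ± 0.10 (edgeR adjusted p = 0.00392) that was called in each RNA fit that left out 1 library. Plod2, a lysyl hydroxylase, rose by 0.60 ± 0.13 on the log2 scale in RNA (edgeR adjusted p = 0.0243) and by 0.62 ± 0.09 in footprints (edgeR adjusted p = 0.0055). Fkbp10, a prolyl isomerase that works with it, rose by 0.57 ± 0.09 in RNA (edgeR adjusted p = 0.0081) and by 0.58 ± 0.10 in footprints (edgeR adjusted p = 0.00819). Ctage5, a partner in loading large cargo at exit sites, was lower in footprints at -0.34 ± 0.07 (edgeR adjusted p = 0.0146), with -0.05 ± 0.13 in RNA. The list as a whole had a median log2 fold change of 0.06 in RNA and 0.04 in footprints, and its summed RNA level was 2987 to 3130 CPM in siKrr1 and 2908 to 3076 CPM in control. Without Lipo, 1 of these genes was called in each assay.

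Among 19 genes for cross-linking and remodelling of the matrix, 18 were tested in RNA and 17 in footprints. Of these, 2 were called higher and 1 lower in RNA, and 1 higher and 2 lower in footprints. Over all genes, 2.69% were called higher and 2.11% lower in RNA, and 3.39% higher and 2.68% lower in footprints. Tgm2, a transglutaminase that cross-links matrix proteins, had 3.12, 5.90 and 5.04 CPM in RNA of siKrr1 A, C and D, against 10.07, 11.04 and 9.41 CPM in siGFP, siNC and Lipo. It fell by 1.11 ± 0.20 on the log2 scale in RNA (edgeR adjusted p = 0.0147) and by 1.08 ± 0.21 in footprints (edgeR adjusted p = 0.0136). Bmp1, a procollagen protease, was called higher in RNA (0.63 ± 0.15, edgeR adjusted p = 0.0362), as was Loxl4, a lysyl oxidase. In footprints Bmp1 (0.80 ± 0.23, edgeR adjusted p = 0.0647) and Loxl4 (0.89 ± 0.46, edgeR adjusted p = 0.281) were above 0 and not called. Adamts1, a metalloprotease, was called higher in footprints (0.84 ± 0.17, edgeR adjusted p = 0.0168), and Timp1, an inhibitor of metalloproteases, lower (-0.32 ± 0.08, edgeR adjusted p = 0.0438). In RNA Adamts1 (0.58 ± 0.27, edgeR adjusted p = 0.249) and Timp1 (-0.29 ± 0.09, edgeR adjusted p = 0.101) had the same signs and were not called. Pxdn, the peroxidase that cross-links collagen IV, had 22.8, 17.7 and 40.0 CPM in RNA of siKrr1 A, C and D, against 15.9, 16.6 and 14.1 CPM in siGFP, siNC and Lipo. Its log2 fold change of 0.79 ± 0.24 was not called (edgeR adjusted p = 0.0819). The calls of this list ranged from 0, without siGFP or siNC, to 5, without siKrr1 C, in RNA, and from 0, without any of the 3 controls, to 7, without siKrr1 C, in footprints.

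The enzymes that build the heparan sulfate chains of perlecan had a median log2 fold change of 0.00 in RNA and 0.03 in footprints. In RNA, 0 of 17 were called by edgeR and by DESeq2, with 2 higher and 0 lower at an unadjusted p under 0.05. Over all genes, edgeR called 2.69% higher and 2.11% lower in RNA, and 20.9% had an unadjusted p under 0.05 in either direction. In footprints 1 of 16 tested was called higher and 0 lower, where 3.39% of all genes were called higher and 2.68% lower. The gene called was Hs6st2, a 6-O-sulfotransferase, with 2.79 ± 0.538 CPM in siKrr1 and 0.848 ± 0.180 CPM in control (SD, n = 3 each). Its log2 fold change was 1.73 ± 0.28 in footprints (edgeR adjusted p = 0.00666) and 1.58 ± 0.52 in RNA (edgeR adjusted p = 0.11). The control libraries held only 18 to 22 Hs6st2 reads in footprints and 4 to 31 in RNA.

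**Figure D5:**
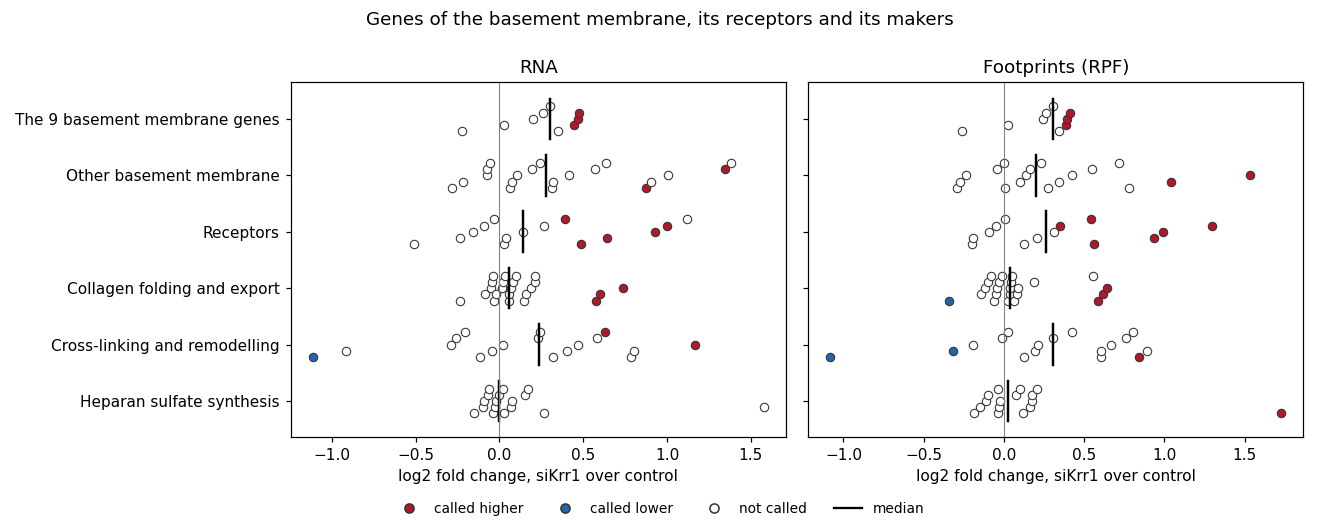
Log2 fold change of siKrr1 over control of each tested gene in the 9 members and in 5 lists of related genes, in RNA (left panel) and in footprints (right panel); filled points were called higher (red) or lower (blue), and the black line is the median of each row. The median of the 9 members was 0.30 in both panels, and that of the heparan sulfate enzymes was 0.00 in RNA and 0.03 in footprints.

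The genes whose profiles over the 12 libraries were most like those of the basement membrane genes were picked by Pearson correlation of log2 CPM after centring each assay, among 6109 genes with at least 20 CPM. For the mean of Lama1, Lamb1 and Lamc1 they were Ripk4, a protein kinase (r = 0.99), Sdc4 (r = 0.98), the kinase gene Pim1 (r = 0.98), the intermediate filament gene Nes (r = 0.98) and the DNA damage response gene Trp53bp1 (r = 0.98). Ripk4 was higher after knockdown by 0.71 ± 0.16 on the log2 scale in RNA (edgeR adjusted p = 0.0289) and Nes by 0.85 ± 0.16 (edgeR adjusted p = 0.0149). For the mean of Col4a1 and Col4a2 they were Dusp4, a MAP kinase phosphatase (r = 0.98), Arl6ip5 (r = 0.97), Sertad1 (r = 0.97), Pxdn (r = 0.95) and Wdr11 (r = 0.95). Of these, Arl6ip5 was called higher in RNA, at 0.49 ± 0.12 (edgeR adjusted p = 0.0375), and Dusp4 in footprints, at 0.66 ± 0.17 (edgeR adjusted p = 0.0499). Dusp4 and Pxdn were highest in siKrr1 D, whereas Ripk4, Sdc4 and Nes were highest in siKrr1 A. The profiles include the differences between the groups and between the lysates, and each lysate gave a library of both assays. The changes and the order of lysates given here therefore follow in part from how the genes were picked.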

How the data were processed

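The deposited tables hold raw, whole-number counts for each gene symbol. Per the submitters' processing notes, the authors used STAR, HTSeq and the build mm10. No version, annotation, trimming step or strand setting is stated there (not given in the sources used here). The count columns of the knockdown libraries carry letters while the sample titles carry numbers, so they were assigned to their group only. All sample columns were used (0 left out). Reads on no gene, 31.2% to 33.4% of unique alignments in RNA and 57.5% to 63.3% in footprints, stayed out of library sizes and tests.

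The 9 genes and all lists were chosen with earlier results of these data known. Genes kept by filterByExpr were tested on all genes with edgeR 4.0.16 (glmQLFit and glmQLFTest, under R 4.3.3 with limma 3.58.1), TMM factors and Benjamini-Hochberg adjustment, with calls at an adjusted p under 0.05; SEs come from the F statistic. The fits were tested on simulated data. Translational efficiency was tested as the assay by condition term of 1 model over 12 libraries. Ratios between chain genes used counts, since no coding lengths were used here, and those in RNA were added after the data were seen. Alternatives were DESeq2 1.42.0, RLE factors, no low-count filter, a replicate block and leaving out each library. The lysate is the pairing, as each was divided between the assays per the labels. Deviations from group means correlated within a lysate with r of 0.266 to 0.713 over 6117 genes. With other lysates of the same group r was at most 0.004, but deviations from a group mean cancel within the group, which lowers these values. No 2 libraries of a group and assay were duplicates. Of 23420 symbols, 23284 (99.4%) matched RefSeq on GRCm38.p6.

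Named genes are the 9 members, Krr1, up to 4 called genes per list by smallest adjusted p (the most abundant 2 where none was called), and the 5 most like each profile. Of these, 1 gene is not reported here. Pou5f1, other markers, Ddr1, Itga1 and Loxl4 were named after their values were seen.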

Additional observations from a re-analysis of the deposited data

How the results depend on the processing

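Calls were sensitive to the test and to single libraries. With DESeq2, 5 members were called higher in RNA, among 662 genes higher and 533 lower; with no low-count filter it was also 5, among 582 higher and 477 lower. Lama1 and Lama5 were the members added in both cases. In footprints with no low-count filter, 6 members were higher and 1, Nid1, lower, among 784 genes higher and 616 lower. Translational efficiency gave 2 genes higher with DESeq2, 2 with no low-count filter, and 5 higher and 1 lower with the replicate block, which pairs the assays by lysate and changed no member's call. RLE factors changed no member's call. Leaving out 1 library at a time gave 0 to 4 members higher and 0 to 1 lower in RNA, and 0 to 6 higher and 0 to 1 lower in footprints. All genes ranged over 63 to 759 higher and 51 to 539 lower in RNA, 67 to 791 higher and 64 to 546 lower in footprints, and 0 to 1 higher in translational efficiency. Log2 differences of footprint ratios ranged from -0.17 to 0.0005 for Col4a1 to Col4a2, 0.16 to 0.27 for Lama1 to Lamc1, 0.33 to 0.41 for Lamb1 to Lamc1 and 0.07 to 0.28 for Lama5 to Lama1. The cause of these shifts was not tested, and each fit without 1 library also had fewer samples. No called log2 fold change of a member or of another gene named here changed sign in these fits; Ctage5 in RNA, which was not called, ranged from -0.22 to 0.09. Of the other genes named, Krr1, Lrp2, Nanog and Serpinh1 in RNA and Krr1, Lrp2, Nanog, Bcam, Plod2, Tinagl1 and Hs6st2 in footprints were called in every fit without 1 library, and every other call was lost in at least 1 such fit. With 3 libraries per group the ratio tests cannot reach a p under 0.05, and the depth of Col4a2 in RNA was the lowest of the members.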
